A study of Homo sapiens with 4 samples.

Results

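The 39 genes described here code for the main protein-folding machines of the human cell: heat shock proteins of the HSP70, HSP110 and HSP90 families, their J-domain and other co-chaperones, the small heat shock protein HSPB1, the heat shock factors HSF1 and HSF2, and the subunits of the CCT chaperonin. They came from a list of symbols that was chosen with earlier results of these data known. No test of the list as a whole was therefore made, and shares of members beside shares of all genes are descriptions. All 39 were found among the 61498 genes of the deposited tables. Of these, 38 had enough reads to be tested. The J-domain gene DNAJA4 did not, with expected counts of 12 and 3 in the untreated libraries and 2 and 6 in the hemin-treated ones. The list is labelled cytosolic, but HSPA9, HSPD1 and HSPE1 are known to encode mitochondrial chaperones, so they are described as a group of their own.

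The cells were K562, an established erythroleukemia line that makes embryonic and fetal globins and can be driven further along the erythroid path by hemin, the iron-containing porphyrin. Poly(A) RNA of 2 libraries of untreated cells was compared with that of 2 libraries of cells kept in 50 µM hemin for 108 h, a comparison that asked which genes changed during induced erythroid differentiation. Neither group is labelled with a transgene or deletion, the untreated libraries carry no label of a mock treatment, and both groups are a leukemic line, which limits them as a model of red cell formation. The labels do not say whether the replicates were separate cultures, so the p-values below measure the spread between these libraries, which may be technical.

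HSP70 proteins bind short hydrophobic stretches of unfolded chains and release them on a cycle of ATP hydrolysis. J-domain proteins speed the hydrolysis, and exchange factors such as the HSP110 and BAG proteins reset the cycle. Clients can then pass by way of the adaptor STIP1 to HSP90, which works with its own co-chaperones, or to CCT, the ring of related subunits that folds actin and tubulin. In the heat shock response, HSF1 and in some settings HSF2 bind repeats of the unit nGAAn in the promoters of these genes. Hemin is a classical agent in K562 cells for activating HSF2, and in red cell precursors HSP70 is known to shield the transcription factor GATA1.

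Because that response acts through short promoter repeats, the 250 bases before each gene start were searched for pairs of inverted units, with the letters GAANNTTC or TTCNNGAA. Each pattern reads the same on both strands, and adjoining pairs may overlap. RefSeq (build GRCh38.p14) gave this window for 34 of the 39 genes, and HSPA14, ST13, FKBP4, HSF1 and CCT6A were not searched. The stretches printed here hold the only members with 3 alternating units, HSPA8, DNAJB6 and CHORDC1, beside the classical stress gene HSPA1A. Capitals mark the matching letters, and all read 5′ to 3′ on the strand of the gene.
HSPA8, distal pair (chr11:123062346-123062375, minus strand): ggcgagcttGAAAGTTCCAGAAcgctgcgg
HSPA8, proximal pair (chr11:123062171-123062200, minus strand): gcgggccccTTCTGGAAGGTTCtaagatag
DNAJB6 (chr7:157336774-157336965, plus strand): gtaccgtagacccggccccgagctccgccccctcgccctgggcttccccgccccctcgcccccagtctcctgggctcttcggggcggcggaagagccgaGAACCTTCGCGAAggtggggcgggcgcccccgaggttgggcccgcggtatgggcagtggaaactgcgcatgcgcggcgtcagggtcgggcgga
CHORDC1 (chr11:90223078-90223299, minus strand): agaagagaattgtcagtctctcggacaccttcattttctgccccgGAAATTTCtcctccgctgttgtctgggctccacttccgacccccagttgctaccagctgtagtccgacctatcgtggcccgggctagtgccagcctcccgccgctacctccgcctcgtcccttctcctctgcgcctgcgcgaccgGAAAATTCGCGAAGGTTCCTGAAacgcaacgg
HSPA1A (chr6:31815293-31815542, plus strand): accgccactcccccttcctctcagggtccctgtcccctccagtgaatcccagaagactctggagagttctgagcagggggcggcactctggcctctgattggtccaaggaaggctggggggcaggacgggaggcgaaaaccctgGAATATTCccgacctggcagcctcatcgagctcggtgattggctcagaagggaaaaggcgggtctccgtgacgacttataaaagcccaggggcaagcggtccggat

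The HSPA8 stretches lie before the RefSeq start but inside exons of HSPA8 in GENCODE 44, so only 30 bases around each pair are shown. The other stretches leave out bases in GENCODE exons of their own gene. Searched windows begin at 1 RefSeq start a gene, and further starts were not examined.

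Of the 34 windows, 9 (26.5%) held at least 1 pair, against 3208 of 27305 (11.7%) over all RefSeq genes. Among genes tested for expression that had such a window, the share was 821 of 10024 (8.19%). HSPA8 had 4 pairs, in clusters from base -230 to -218 and from -55 to -43 before the start. CHORDC1 had 6 pairs, 4 of them in 1 run from -60 to -38. DNAJB6 had 2 overlapping pairs, and HSPA1A, HSPA1B, DNAJA1, BAG2, HSPB1 and TCP1 had 1 each. Runs of 3 alternating units were present in 3 of 34 windows (8.82%) and in 0.439% of all promoters. These matches are letters, not measured binding. Only exact letters were counted, so an element with a changed letter, or one outside the window, would be missed. A window without a pair is therefore not shown to lack an element. A pair stood before 4 of the 14 members called higher and before 5 of the 18 not called.

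**Figure D1:**
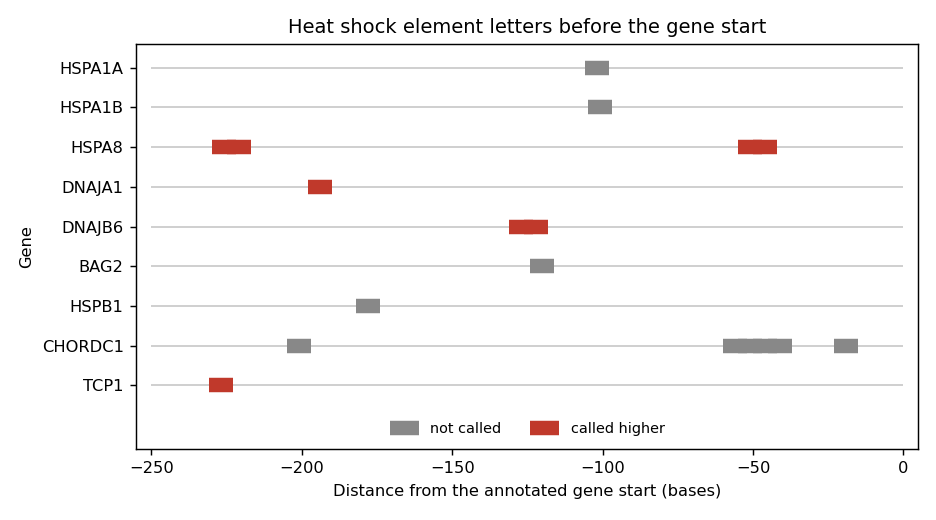
Position of each pair of inverted heat shock units (boxes) in the 250 bases before the RefSeq gene start (horizontal axis, bases) for the 9 genes that had one, coloured by whether the gene was called higher after hemin. HSPA8 and CHORDC1 show clusters near the start, whereas HSPA1A and HSPA1B each have a single pair about 100 bases away.

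The libraries were close to one another in depth, with expected counts summing to between 7455447 and 8241534, 12.8% to 13.6% of them on the mitochondrial genome. Erythroid genes identified the cells: all 8 markers examined (GATA1, TAL1, KLF1, TFRC and 4 globins) were present, with summed TPM (transcript levels scaled by length and depth) of 5349 and 5545 in untreated and 6886 and 6412 in hemin-treated libraries. Globins made up most of this sum. KLF1, TFRC and the 4 globins lay higher in both hemin libraries. The groups overlapped for GATA1 (113 and 120, then 121 and 114 TPM) and TAL1 (27.0 and 26.4, then 28.8 and 25.8). The megakaryocytic markers PF4 and GP9 and the lymphoid markers CD3E and MS4A1 were at 0 in every library, and summed megakaryocytic TPM ran from 1.57 to 5.4. Summed lymphoid and monocytic TPM was 237 and 232, then 216 and 209 after hemin. The part of these marker shifts in the results below was not tested.

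Most of the 38 tested genes lay a little higher after hemin. By the quasi-likelihood test of edgeR, with p-values adjusted by Benjamini-Hochberg over all 14458 genes tested, 15 were called higher and 1 lower at an adjusted p under 0.05, and 22 were not called. The same test called 7.00% of all genes higher and 7.14% lower. Those shares were not matched to the members for expression level. The standard error of the log2 fold change was 0.035 for HSP90AB1, at 2186 to 2480 scaled CPM. For DNAJB4, at 9.57 to 10.7, it was 0.16. The log2 fold change was positive for 30 members (78.9%, against 49.1% of all genes tested), and the median was 0.13 beside -0.0048 over all genes. In 28 of the 38 members both hemin libraries lay above both untreated ones, and in 6 of the 38 below. Over all 14458 genes tested, 4056 (28.1%) lay above and 4229 (29.3%) below. DESeq2 also called 15 members higher, against 5.05% of genes, and none lower. The changes were small: the largest increase was 1.48-fold.

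The count of calls changed with the fit. The share of all genes called was not counted for fits with other scaling, a block or 1 library left out. Whether the losses there were particular to the members was not tested. With untreated replicate 1 left out, 5 members were called higher, and leaving out the other libraries one at a time gave 11 to 13. Scaling by library size only, which moved the median of all genes to -0.04, gave 10 and ended the calls of HSPA4, ST13, STIP1, AHSA1 and CCT5. A fit with the replicate number as a block gave 11 and ended those of ST13, HSP90AB1, STIP1 and AHSA1, and of HSPA4L. The 5 genes HSPA8, HSPH1, DNAJB6, HSP90AA1 and CCT2 were called with every library left out in turn and in all 12 alternative fits on counts.

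**Figure D2:**
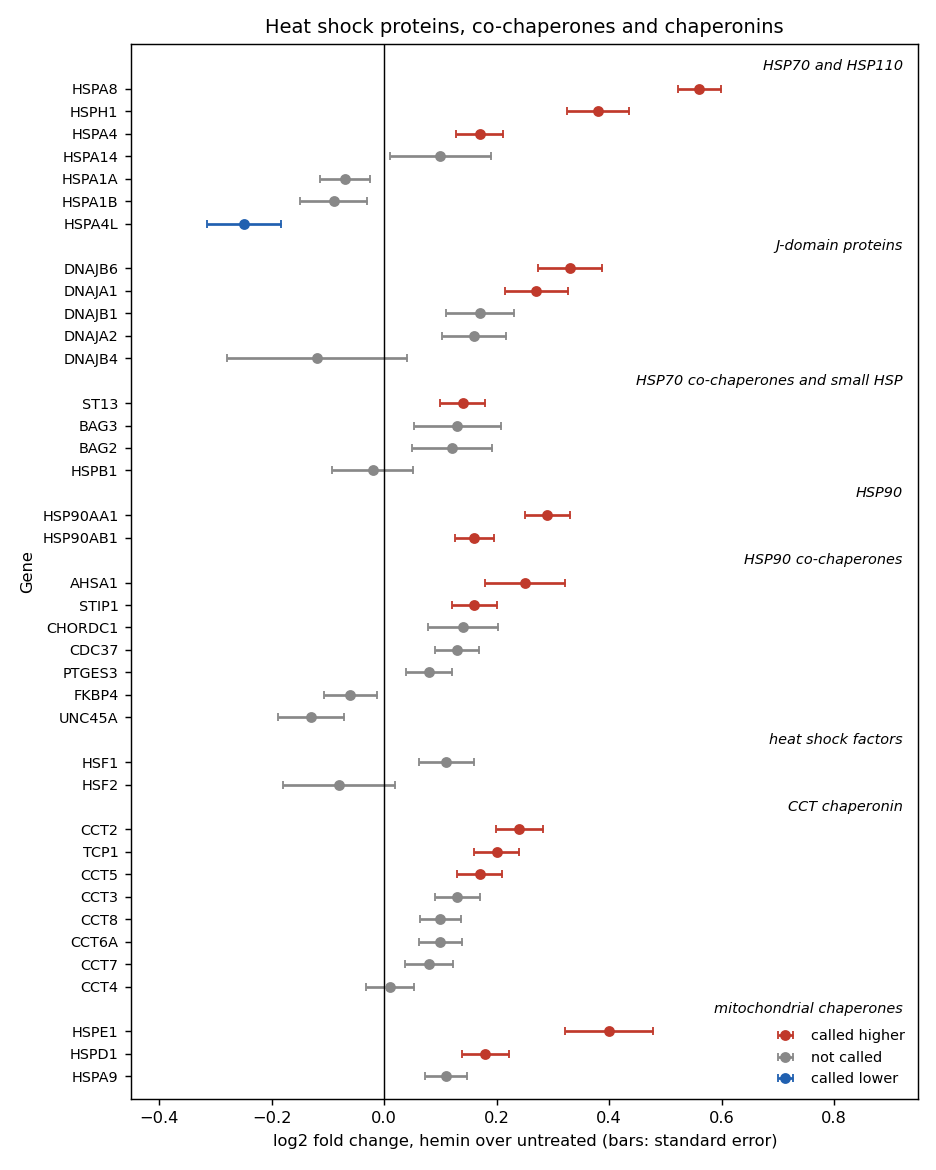
Log2 fold change (horizontal axis, hemin over untreated, edgeR) of the 38 tested genes, grouped by role; points are estimates from 2 libraries against 2, bars are 1 standard error, red marks genes called higher and blue the gene called lower. HSPA8 stands farthest to the right at 0.56 and HSPA4L farthest to the left at -0.25.

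Together the 39 genes took 9392 and 9465 TPM in untreated and 10600 and 10693 in hemin-treated libraries, a ratio of 1.13. This was 0.939% to 1.07% of all transcripts. The HSP70 and HSP110 genes had the highest ratio of any role, 1.32, from 1364 and 1382 to 1795 and 1826 TPM. HSPA8 alone made up most of that sum, with 966 and 974, then 1375 and 1423 TPM. Ratios were 1.15 for the J-domain genes, 1.11 for HSP90, 1.08 for CCT and 1.03 for HSP70 co-chaperones with HSPB1. Hemin libraries lay above untreated ones in each of these sums. With 2 libraries a group, an exact two-sided permutation test cannot go below p = 0.333, the value each sum gave. In bulk RNA, fewer cells of a type and less RNA per cell cannot be told apart.

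The HSP70 family did not move as 1 block. HSPA8 (chr11:123057489-123063230), the constitutive cytosolic HSP70 also called HSC70, had the largest increase of all members. Its scaled CPM (expected counts brought to a common depth with TMM factors) were 1405 and 1457 in untreated libraries and 2078 and 2144 after hemin. Both hemin libraries lay far outside the untreated range, 1431 ± 37.2 against 2111 ± 46.8 (mean ± SD, n = 2 each). The log2 fold change was 0.56 ± 0.038 (SE) with an edgeR adjusted p of 7.5e-05, at percentile 96.6 of all genes tested, with 498 genes above it. This call held under all 14 alternatives, and HSPA8 was the only member called when limma was run on log2 TPM.

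HSPA1A (chr6:31815543-31817946) and HSPA1B (chr6:31827738-31830254), the neighbouring and nearly identical copies of the stress-inducible HSP70, were not called. HSPA1A had scaled CPM of 157 and 160, then 150 and 152. For HSPA1B the values were 114 and 115, then 113 and 102. In each gene both hemin libraries lay slightly below the untreated ones. Log2 fold changes were -0.07 (edgeR adjusted p = 0.333) and -0.09 (0.374). Reads of this pair can be divided wrongly between the copies, and the posterior SD of the count reached 3.91% and 5.27%. Summed as a single feature, they gave 271 and 275 scaled CPM in untreated and 263 and 254 in hemin-treated libraries, a log2 fold change of -0.08 ± 0.042 with an adjusted p of 0.249.

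On the length-scaled TPM, constitutive HSPA8 thus outweighed the inducible pair by 6.07 and 6.14 to 1 in untreated cells and by 9.14 and 9.88 to 1 after hemin. The libraries of the groups did not overlap in this ratio. HSPA8 also changed its place among the members. In untreated libraries its level of 966 and 974 TPM lay below that of HSP90AB1 (1229 and 1233), and after hemin its 1375 and 1423 lay above HSP90AB1 (1338 and 1345).

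Among the larger HSP70 relatives, which act as exchange factors, HSPH1 (HSP110; chr13:31134973-31162388) rose 1.3-fold. It had scaled CPM of 120 and 117 in untreated and 148 and 161 in hemin-treated libraries, a log2 fold change of 0.38 ± 0.055 (edgeR adjusted p = 0.00297). HSPA4 rose less, from 365 and 383 to 419 and 423 scaled CPM (0.17 ± 0.042, adjusted p = 0.0259). Its call ended with library size only and without untreated replicate 1 or hemin replicate 2 (adjusted p up to 0.135 without 1 library). On TPM the HSPA4 groups overlapped, at 144 and 151 against 154 and 149, while the effective length that RSEM estimated from the mix of transcripts went from 3571 and 3511 to 3737 and 3862 bases.

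HSPA4L, the other relative in this subfamily, was the only member called lower. Scaled CPM fell from 59.3 and 60.4 to 49.8 and 50.7, a log2 fold change of -0.25 ± 0.066 (edgeR adjusted p = 0.0346). That call was lost with any 1 library left out (adjusted p up to 0.131) by DESeq2 (0.192) and in the replicate block, and TPM overlapped between groups at 16.2 and 17.9 against 14.8 and 16.5. HSPA14, a ribosome-associated HSP70, overlapped between groups at 35.4 and 37.0 against 41.1 and 36.3 scaled CPM (log2 fold change 0.10, adjusted p = 0.533).

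**Figure D3:**
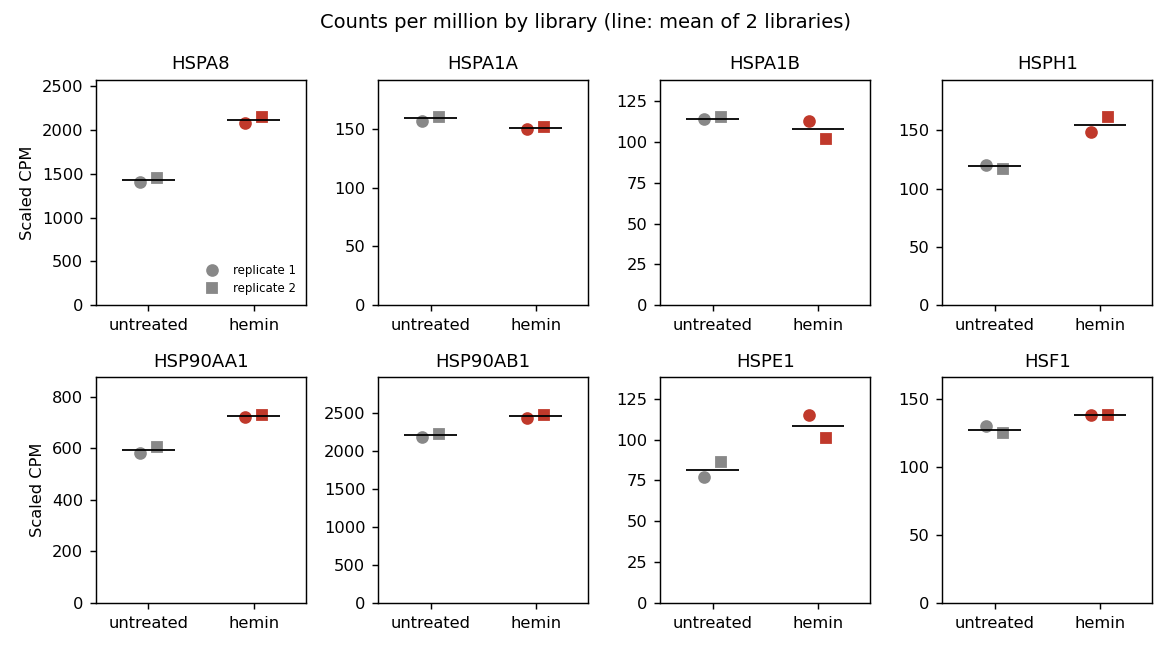
Scaled CPM (vertical axes, each from 0) of 8 genes in the 2 untreated (grey) and 2 hemin-treated (red) libraries, circles for replicate 1, squares for replicate 2 and lines for group means. HSPA8 goes from about 1431 to 2111, whereas HSPA1A and HSPA1B lie slightly lower after hemin and were not called.

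Of the 5 tested J-domain genes, which deliver clients to HSP70, 2 were called higher. DNAJB6 (chr7:157335381-157417439), known for holding back aggregation of polyglutamine proteins, rose from 107 and 102 to 127 and 136 scaled CPM, a log2 fold change of 0.33 ± 0.057 (edgeR adjusted p = 0.00608). DNAJA1, a farnesylated class A partner of HSP70, rose from 122 and 135 to 155 in both hemin libraries (0.27 ± 0.056, adjusted p = 0.0127), a call that ended without untreated replicate 1 (0.0739). The other members were not called. DNAJA2 had 109 and 117, then 123 and 131 scaled CPM (adjusted p = 0.086). DNAJB1, the main stress-inducible J-domain protein, had 65.9 and 63.4, then 72.1 and 73.8 (0.0893). In both, hemin libraries lay above untreated ones, and DNAJB4 lay below, at 10.7 in both untreated libraries and then 9.57 and 10.2 (0.675).

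The remaining HSP70 helpers changed little. ST13, also called HIP, which stabilizes the client-bound state of HSP70, rose from 405 and 396 to 435 and 449 scaled CPM (log2 fold change 0.14 ± 0.04, edgeR adjusted p = 0.0452), a call that ended without either untreated replicate or without hemin replicate 2 (adjusted p up to 0.175), with library size only and in the replicate block. The exchange factors BAG2 and BAG3 were not called, with log2 fold changes of 0.12 and 0.13 and adjusted p of 0.301 and 0.317. HSPB1, the small heat shock protein HSP27, overlapped between the groups at 92.9 and 100 against 102 and 89.4 scaled CPM.

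Both cytosolic HSP90 genes were called higher. HSP90AA1 (chr14:102080742-102139699), the form more responsive to stress, rose from 581 and 605 to 722 and 730 scaled CPM, a log2 fold change of 0.29 ± 0.04 (edgeR adjusted p = 0.00206). HSP90AB1 (chr6:44246166-44253888), the constitutive form, rose from 2186 and 2235 to 2442 and 2480 (0.16 ± 0.035, adjusted p = 0.0197), a call that ended without untreated replicate 1 (0.074) and in the replicate block. The groups did not overlap for either gene. The TPM ratio of HSP90AB1 to HSP90AA1 was 4.63 and 4.62 in untreated and 4.14 and 4.21 in hemin-treated libraries, so the constitutive form remained the more abundant one.

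Among 7 HSP90 co-chaperones, 2 were called higher. STIP1, the adaptor that joins HSP70 to HSP90, rose from 331 and 339 to 378 and 369 scaled CPM (log2 fold change 0.16 ± 0.04, edgeR adjusted p = 0.0312). AHSA1, which stimulates the HSP90 ATPase, rose from 67.8 and 74.1 to 88.5 and 80.6 (0.25 ± 0.071, adjusted p = 0.0446), although DESeq2 gave 0.0989 and its TPM overlapped at 141 and 155 against 199 and 154. Both calls ended without either untreated replicate or without hemin replicate 1, with adjusted p up to 0.135 for STIP1 and 0.219 for AHSA1. Under library size only or the replicate block, 0 of these 7 genes were called higher.

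The kinase adaptor CDC37 came close to the threshold, with 357 and 350 against 385 and 390 scaled CPM (log2 fold change 0.13, edgeR adjusted p = 0.0509). CHORDC1, whose promoter window had the most pairs of heat shock units, was not called, at 74.6 and 71.4 against 77.9 and 82.9 (0.14, adjusted p = 0.168). PTGES3, the p23 co-chaperone that steadies the closed form of HSP90, had a log2 fold change of 0.08 (0.237). The myosin chaperone UNC45A had 75.9 and 75.4, then 70.5 and 68.3 scaled CPM (-0.13, adjusted p = 0.195).

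FKBP4, an immunophilin of steroid receptor complexes, took opposite directions on different scales. Its scaled CPM were 142 and 146 in untreated and 140 and 136 in hemin-treated libraries (log2 fold change -0.06, edgeR adjusted p = 0.452). Its TPM were 64.5 and 90.2, then 83.3 and 90.0. The estimated effective length was 3114 bases in untreated replicate 1 and 2062 to 2309 in the other libraries.

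Transcripts of the heat shock factors were not called in either direction. HSF1, the main factor of the response, had 130 and 125 scaled CPM in untreated libraries and 138 in both hemin libraries (log2 fold change 0.11 ± 0.049, edgeR adjusted p = 0.153). HSF2, the factor linked to hemin in these cells, overlapped at 27.3 and 31.9 against 28.0 and 27.8 (-0.08 ± 0.1, adjusted p = 0.64). RNA levels do not measure the activity of either protein. Hemin-treated cells were measured only at 108 h, so an earlier, passing change in these or other members could not be seen.

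All 8 CCT subunit genes had a positive log2 fold change, from 0.01 to 0.24, and 3 were called higher. CCT4, the lowest of them, turned negative when libraries were scaled by size alone, on TPM, or without untreated replicate 1 or hemin replicate 1. CCT2 (chr12:69585426-69601570) rose from 217 and 223 to 258 and 261 scaled CPM (0.24 ± 0.042, edgeR adjusted p = 0.00688). TCP1, the first subunit named, rose from 305 and 309 to 348 and 355 (0.20 ± 0.04, adjusted p = 0.0128), and CCT5 from 525 and 535 to 583 and 606 (0.17 ± 0.04, 0.0262). The TCP1 call ended without untreated replicate 1 (0.0649), and that of CCT5 with library size only and without either untreated replicate or hemin replicate 2 (up to 0.113).

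The other CCT genes were not called, with edgeR adjusted p of 0.0637 for CCT3 (0.0414 by DESeq2), 0.122 for CCT6A, 0.28 for CCT7 and 0.106 for CCT8. Hemin libraries lay above untreated ones for every subunit gene except CCT4, which overlapped at 482 and 505 against 506 and 490 scaled CPM. CCT subunits assemble in equal numbers into each ring, yet their transcripts were unequal: on TPM the most abundant subunit was 2.78 and 2.72 times the least abundant in untreated and 2.46 and 2.64 times in hemin-treated libraries. CCT2 was the lowest in every library, at 183 in both untreated and 219 and 215 TPM in hemin-treated libraries, and CCT8, CCT5 and CCT3 were the highest, between 473 and 569. The coefficient of variation over the 8 subunits stayed between 33.2% and 34.1%.

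**Figure D4:**
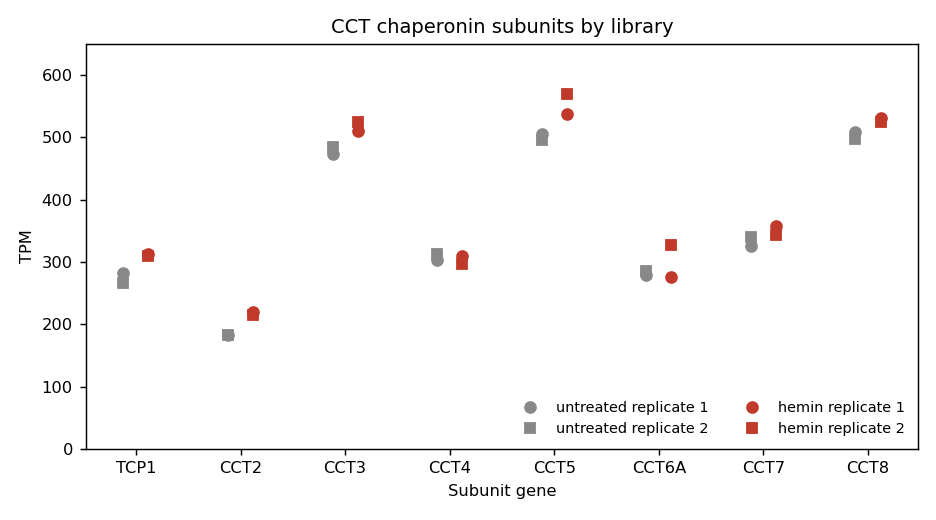
TPM (vertical axis, from 0) of the 8 CCT subunit genes in each library, grey for untreated and red for hemin, circles for replicate 1 and squares for replicate 2. CCT2 is the lowest subunit in all 4 libraries, and CCT3, CCT5 and CCT8 are the highest.

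Of the 3 mitochondrial chaperones, 2 were called higher. HSPE1 (HSP10; chr2:197500140-197503449), the lid of the chamber formed by HSPD1, rose 1.32-fold from 76.9 and 86.1 to 115 and 101 scaled CPM (log2 fold change 0.40 ± 0.078, edgeR adjusted p = 0.0105). HSPD1 (HSP60; chr2:197486584-197516737) rose from 922 and 982 to 1070 and 1091 (0.18 ± 0.042, adjusted p = 0.0212). Both calls ended without untreated replicate 1 (0.0721 and 0.108). These genes lie head to head, their GENCODE spans overlap on opposite strands, and the RSEM options listed in the study's methods name no strand setting. Reads from any exon bases that both genes share could thus be divided wrongly, and whether such bases exist was not examined. The posterior SD of the count reached 0.0447% for HSPD1 and 1.37% for HSPE1. HSPA9, the mitochondrial HSP70 or mortalin, had 896 and 890, then 956 and 972 scaled CPM (0.11, adjusted p = 0.079).

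Around these 39 genes, 110 further folding genes in 6 lists were examined, of which 90 could be tested. By edgeR's adjusted p, 10 were called higher and 1 lower, beside 7.00% and 7.14% of all genes tested, and the median log2 fold change was 0.04. BAG1, an HSP70 exchange factor, had the largest increase, from 37.8 and 33.4 to 61.2 and 59.4 scaled CPM (0.76 ± 0.081, adjusted p = 6.7e-04), and remained called with each library left out (up to 0.00777). HSPA6, a strictly stress-inducible HSP70, fell from 10.5 and 8.55 to 5.39 and 5.45 (-0.81 ± 0.2, adjusted p = 0.0287), from only 83 and 64 to 40 and 44 expected counts. The HSPA6 call was lost by DESeq2 (0.138) and without untreated replicate 1 or hemin replicate 2 (up to 0.16), and HSPA6 can share reads with its near copy HSPA7.

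Of 20 tested J-domain genes outside the main list, 5 were called higher, led by DNAJB12 of the endoplasmic reticulum membrane (log2 fold change 0.33 ± 0.087, edgeR adjusted p = 0.0361), a call that DESeq2 did not make (0.108). Among 22 other HSP90 co-chaperones tested only NUDC was called (0.22 ± 0.047, adjusted p = 0.0163). None of the 17 tested prefoldin, phosducin-like and tubulin folding genes, which work beside CCT, was called by edgeR or DESeq2, with 3 at an unadjusted p under 0.05. AFG3L2, a protease of the inner mitochondrial membrane, led 2 calls among 17 mitochondrial genes (0.20, adjusted p = 0.043), none of which DESeq2 made. BTF3, a subunit of the nascent chain complex, was called among 3 ribosome-bound factors (0.14, adjusted p = 0.0477). Each of these 4 named calls was lost when some single library was left out, with adjusted p up to 0.18, 0.0924, 0.166 and 0.189 in the order given.

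**Figure D5:**
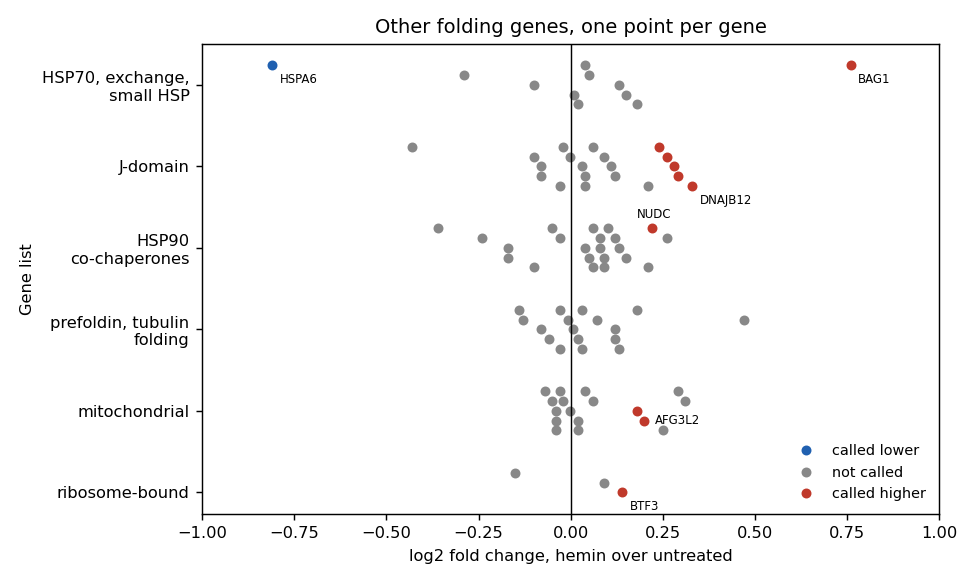
Log2 fold change (horizontal axis, hemin over untreated, edgeR) of the 90 tested folding genes outside the main list, 1 point a gene, arranged by list on the vertical axis, with red for called higher and blue for called lower. BAG1 at 0.76 and HSPA6 at -0.81 stand apart from the rest, which lie between -0.43 and 0.47.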

How the data were processed

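Per the labels, poly(A) RNA was sequenced with 50-base reads. The submitters' processing notes name Trimmomatic 0.39, STAR 2.7.5c and RSEM 1.3.1, and the authors quantified each replicate on Ensembl 106. The expected counts, as deposited, are unnormalized estimates, in which a read that fits several genes is split among them. The deposited TPM are scaled by effective length. The deposited posterior SDs and lengths describe that division and the transcript mix, and a posterior mean count served as an alternative. The authors' FPKM and the deposited means of replicates were not used. Chromatin contacts and signal tracks were not analysed here, and 1 marker gene of the list is not reported here.

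Genes were matched by symbol and joined by gene ID, and GENCODE 44 gave GRCh38 coordinates. Counts were rounded, filtered with filterByExpr (14458 of 61498 genes kept), given TMM factors, and compared by the quasi-likelihood test of edgeR 4.0.16 (R 4.3.3) with condition alone, with Benjamini-Hochberg adjustment over all genes tested and a threshold of 0.05. The standard error is the size of the log2 fold change divided by the square root of the F statistic. The common dispersion was 0.001179. A count of 0 would allow up to 3 counts for counting error only. That is 0.364 to 0.402 CPM over all counts of a library, without TMM factors. Permutation tests used scipy 1.17.1. The scripts were tested on simulated data.

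The 39 members, the 6 further lists and the tests were chosen with earlier results of these data known. All members may be named, and from each further list the called gene with the largest increase or decrease and any called gene changed at least 2-fold. Where a symbol repeated, the gene ID with the highest summed count was kept. Scaling was varied (RLE factors, or library size only), as was the filter (none, or a minimum of 20 counts throughout a group). DESeq2 1.42.0, limma 3.58.1 on log2(TPM + 1) or log2(TPM + 0.1), a block by replicate number, the posterior mean counts, the summed HSPA1A and HSPA1B pair and fits without 1 library were further alternatives.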

Additional observations from a re-analysis of the deposited data

How the results depend on the processing

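Of 16 called members, 5 were called in all 12 alternative fits on counts. Members called higher (15) numbered 5 to 13 with 1 library left out, 5 of them without untreated replicate 1, and 1 by limma on log2(TPM + 1) or log2(TPM + 0.1). The 1 member called lower, HSPA4L, gave 0 by DESeq2, in the replicate block, with any library left out (0 to 0) and by limma on either TPM scale. The median log2 fold change of members (0.13) was 0.09 with library size only, 0.10 and 0.11 by limma with pseudocounts of 1 and 0.1, and 0.12 to 0.15 with 1 library left out. The median over all genes tested (-0.0048) moved with it, to -0.04 with library size only and -0.03 by limma. The other chaperone genes called higher (10) numbered 17 with no filter on low counts and 17 from posterior mean counts, 0 by limma on either TPM scale, and 3 to 9 with 1 library left out. Those called lower (1) numbered 3 with library size only, 2 with no filter, 2 with a minimum of 20 counts throughout a group, 2 from posterior mean counts, 0 by DESeq2, 0 by limma on either scale, and 0 to 2 with 1 library left out. Promoter windows with 3 alternating units numbered 3, against 9 with 2. The cause of these shifts was not tested, beyond the stricter pattern itself. No called gene changed direction under these alternatives.

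The replicate numbers are shared by both groups, but nothing in the labels says that they mark a common culture or day, and the deviations of same-numbered libraries correlated at 0.00473. With the replicate block, 11 members were called higher and 0 lower, and 8 other chaperone genes higher and 1 lower. A library left alone in its group was assumed to vary like the others.

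Depth and 2 libraries a group limit what can be seen: the largest increase among members was 1.48-fold, and 11 of the 16 calls ended in at least 1 fit that left out a library. Effective lengths differed between libraries for FKBP4, HSPA4 and others, so their TPM and counts moved apart.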
